A study of Mus musculus with 3 samples.

Results

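Translation factors are the proteins that start and lengthen the peptide chain on the cytosolic ribosome. The set comprised every gene whose symbol began with Eif or Eef followed by a digit, apart from the Eif2ak kinases, Eef2k, pseudogenes and probe sets that name several genes. It held 53 of 18194 genes, 41 of initiation and 12 of elongation. The symbol alone chose the members, and each was read through the probe set whose mean over the arrays was highest. Eif5a and Eif5a2 were counted with elongation, following function, and all other members were classed by name. The elongation class thus includes 4 lysine methyltransferases of elongation factors. The initiation class includes 3 eIF4E repressors and Eif4a3, a helicase of the exon junction complex.

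RNA of mouse gastric epithelium was measured on 3 Affymetrix Mouse Genome 430 2.0 arrays, 1 for each of parietal cells (acid-secreting), zymogenic cells (chief cells, which secrete pepsinogen) and pit cells (surface mucous cells). Each array held RNA pooled from 4 to 5 mice and 3000 to 5000 cells cut out by laser, and neither genotype, strain, age nor any treatment is stated in the labels. Parietal cells were recognised in the pit zone by binding of the lectin DBA and autofluorescence, pit cells near the mouth of the unit by E-cadherin without DBA, and zymogenic cells at the base by E-cadherin without GSII or DBA. Zymogenic cells were cut from other slides than the gastric units that gave both parietal and pit cells, so for them lineage and slide cannot be told apart. With n = 1 per lineage there is no replicate error and no test, and every difference below describes these 3 arrays.

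As background, initiation begins when eIF2 brings the initiator tRNA to the small ribosomal subunit, where eIF1, eIF1A, eIF3 and eIF5 help it to find the start codon. The eIF4 factors bind the mRNA cap and unwind the leader, and the eIF4E-binding proteins block that step when mTOR signalling is low. In elongation, eEF1A delivers each aminoacyl-tRNA, the eEF1B subunits recharge eEF1A with GTP, and eEF2 moves the ribosome along the mRNA. Chief cells export large amounts of enzyme, and parietal cells are packed with mitochondria whose proteins are largely made in the cytosol.

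Promoter windows of the members were read from RefSeq (GRCm38.p6), from 250 bases before to 50 bases after each annotated start, and 42 of 53 members had one. The windows shown belong to 8 members whose values are described further on, and they hold an E-box or an ETS motif, short sequences known to be bound by Myc-type and ETS-type transcription factors. The stretches are 60 bases long, 5′ to 3′ on the gene's strand, and capitals mark every match to an E-box, ETS motif or TATA box. The letters searched were CACGTG for the E-box. The ETS motif was searched as CCGGAAGT and, on the other strand, as ACTTCCGG. The TATA box was searched as TATAAA and its reverse complement.
Eef2, chr10:81176563-81176622, plus strand: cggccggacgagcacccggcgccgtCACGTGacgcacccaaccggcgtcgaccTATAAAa
Eif3f, chr7:108934322-108934381, plus strand: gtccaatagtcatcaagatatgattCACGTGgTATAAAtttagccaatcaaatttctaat
Eif3k, chr7:28981898-28981957, minus strand: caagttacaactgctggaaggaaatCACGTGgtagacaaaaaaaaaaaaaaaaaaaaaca
Eif4h, chr5:134639471-134639530, minus strand: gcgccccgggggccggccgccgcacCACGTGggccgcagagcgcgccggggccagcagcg
Eef1b2, chr1:63176791-63176850, plus strand: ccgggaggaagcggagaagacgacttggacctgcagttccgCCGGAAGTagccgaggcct
Eif3l, chr15:79075162-79075221, plus strand: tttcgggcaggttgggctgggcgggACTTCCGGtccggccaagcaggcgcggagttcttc
Eif3d, chr15:77970861-77970920, minus strand: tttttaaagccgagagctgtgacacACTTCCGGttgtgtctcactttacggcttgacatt
Eif4e2, chr1:87213891-87213950, plus strand: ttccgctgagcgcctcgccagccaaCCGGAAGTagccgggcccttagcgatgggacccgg
Each stretch lies upstream of the start except for its last 20 bases in Eef1b2 and its last 12 in Eif4e2. Eif4e2 has several annotated starts, and the stretch is placed by the one that leaves the ETS motif upstream. Relative to its other starts the motif lies downstream.

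The E-box was found, on either strand, in the windows of 11 of the 42 members (26.2%), against 8.09% of all 27025 genes with a window. The ETS motif was found in 8 members (19.0%) against 4.31% of all genes, and the CRE half-site TGACGT (reverse ACGTCA) in 9 (21.4%) against 8.37%. The TATA box occurred in 4 members (9.52%) against 15.7%. Shares were also taken among the 978 genes, 14 of them members, with a window and a value above the detection floor on all arrays. There the E-box was in 6 members (42.9%, against 11.5% of these genes), the ETS motif in 5 (35.7%, against 11.3%) and the CRE half-site in 4 (28.6%, against 14.9%). The TATA box was in 3 (21.4%, against 8.998%), the reverse of the order over all members and all genes. Some genes have several windows, 6 in the case of Eif5a, and were counted once if any held a match. These matches describe letters in a window and not occupied sites.

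A value counted as detected above a floor of 23.3, the level that 95% of 80 odorant and vomeronasal receptor probe sets did not exceed on the array where they ran highest. Values under it were raised to it before ratios were taken, so a fold against such a value is a lower bound. By this measure 32 members were detected on at least 1 array (60.4%, against 22.7% of all genes) and 19 on all 3. On the parietal array 29 of 53 members were detected (54.7%, against 15.4% of all genes), in zymogenic cells 22 (41.5%, against 12.6%) and in pit cells 25 (47.2%, against 14.4%). The other 21 were at or under the floor throughout. Among those were the cap-binding protein Eif4e, the helicases Eif4a2 and Eif4a3 and the subunit-joining factor Eif5b. So were the start-codon factors Eif1a and Eif1b and the eIF2 gamma subunits Eif2s3x and Eif2s3y.
The rest of the undetected were Eif1ad, Eif2a, Eif2b3, Eif2b4, Eif3m, Eif4e3, Eif4enif1, Eef1a2, Eef1e1, Eif5a2, Eef1akmt2, Eef1aknmt and Eef2kmt. A value under the floor does not show that a gene is silent. Of 48 cytosolic ribosomal proteins, 11 were also under it on every array.

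**Figure D1:**
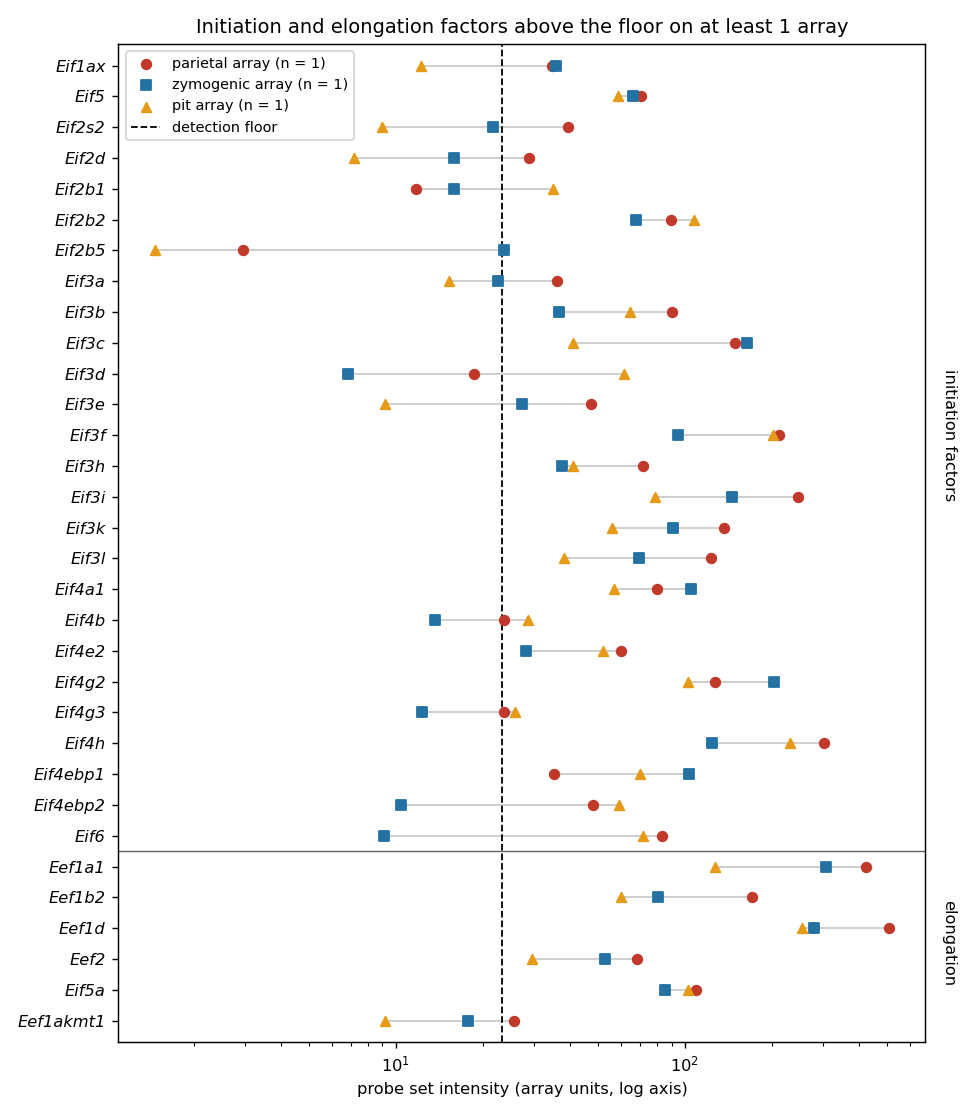
Probe set intensity (array units, log axis) of the 32 members above the detection floor (dashed line) on at least 1 array, with 1 point per array and n = 1 per lineage. Most elongation factors lie highest in parietal cells and lowest in pit cells, while Eif6 and Eif4ebp2 lie far below their other values in zymogenic cells.

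The arrays differed before any gene group was considered. For the 1186 genes that passed the floor everywhere, parietal minus pit had a median log2 difference of 0.29, zymogenic minus pit of -0.21 and zymogenic minus parietal of -0.64, and group values are given beside these. The labels could be checked in part. Pit markers were above the floor for 9 of 10 genes in parietal cells and 10 of 10 in pit cells, with summed intensities of 20002 and 14703 against 141 in zymogenic cells. Of 10 zymogenic markers, 5, 7 and 2 were detected in parietal, zymogenic and pit cells, with sums of 3457, 25938 and 286, and of 13 parietal markers 7, 6 and 4, with sums of 5893, 1365 and 572. Intrinsic factor (Cblif), which mouse chief cells make, was under the floor in parietal (2.62) and pit (3.18) cells against 558 in zymogenic cells, while Pgc was at 217, 4593 and 9.88. Of the proton pump subunits that define parietal cells, Atp4b was at 4402, 793 and 102, but Atp4a was at 214, 261 and 12.5, higher in zymogenic than in parietal cells. The parietal array thus held parietal, pit and some zymogenic markers, and the zymogenic array held parietal ones. The pit array held 4 parietal and 2 zymogenic markers above the floor, among them Atp4b. The part of such markers in the results was not tested. In such pools, fewer cells of a type and less RNA per cell cannot be told apart.

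Elongation factors were compared across the lineages first. All 5 of those detected on every array were highest in parietal cells, and 4 of them were lowest in pit cells, where 51.8% and 35.7% of all genes so detected were highest and lowest. Their median on the log2 scale came to 1.20 for parietal minus pit (0.29 over all genes), 0.42 in zymogenic minus pit (-0.21) and -0.46 in zymogenic minus parietal (-0.64). The excess over all genes was 0.91 for parietal minus pit and 0.88 after quantile normalization. It was 0.91 with arrays scaled to 1 median and 0.97 with arrays scaled to the spiked BioB and BioC controls. Those 2 scalings multiply each array by a constant. The excess could change there only through which genes passed the floor and which probe set represented a gene. For zymogenic minus parietal the median itself turned to 0.23 after quantile normalization, when that of all genes was -0.080.

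Eef1a1, the main carrier of aminoacyl-tRNA to the ribosome, had an intensity of 425 in parietal, 308 in zymogenic and 127 in pit cells. It was 3.35-fold and 2.43-fold lower in pit cells than in parietal and zymogenic cells. Its tissue-restricted paralogue Eef1a2, known from muscle and neurons, was under the floor on all 3 arrays, at 12.2, 10.8 and 5.98 in the same order.

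Eef1b2, the catalytic subunit that recharges eEF1A, stood at 170.1 in parietal, 80.6 in zymogenic and 60.1 in pit cells. It was the 1 member of 53 that was at least 2-fold higher in parietal cells than in both other lineages, at 2.11-fold and 2.83-fold, where 1.7% of all genes were. After quantile normalization its log2 difference from the nearer array was 0.41, and with the floor as a pseudocount 0.90, both under 2-fold.
Eef1d, the delta subunit of the same exchange complex, had intensities of 508, 281 and 255 in parietal, zymogenic and pit cells. Its difference between parietal and pit was just inside 2-fold, at 1.99-fold. Its further probe sets did not all share that order: the probe set at 41.9, 21.5 and 17.8 did, while the one at 118, 0.34 and 216 was highest in pit cells and lowest in zymogenic cells.
Eef2, the translocase, had intensities of 68.4, 53.1 and 29.7 in parietal, zymogenic and pit cells, 2.30-fold higher in parietal than in pit cells.

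Eif5a, which carries hypusine and helps ribosomes past difficult peptide bonds such as proline stretches, differed little between the arrays. It had intensities of 109.5, 85.2 and 103 in parietal, zymogenic and pit cells, a log2 difference of 0.09 for parietal minus pit. A further probe set gave 0.13. Its paralogue Eif5a2 was under the floor throughout. The lysine methyltransferase Eef1akmt1, which modifies eEF1A, was at 25.7 in parietal cells against 17.7 and 9.21, under the floor, in zymogenic and pit cells. A further probe set of it, at 5.76, 29.2 and 6.18, passed the floor in zymogenic cells instead.

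**Figure D2:**
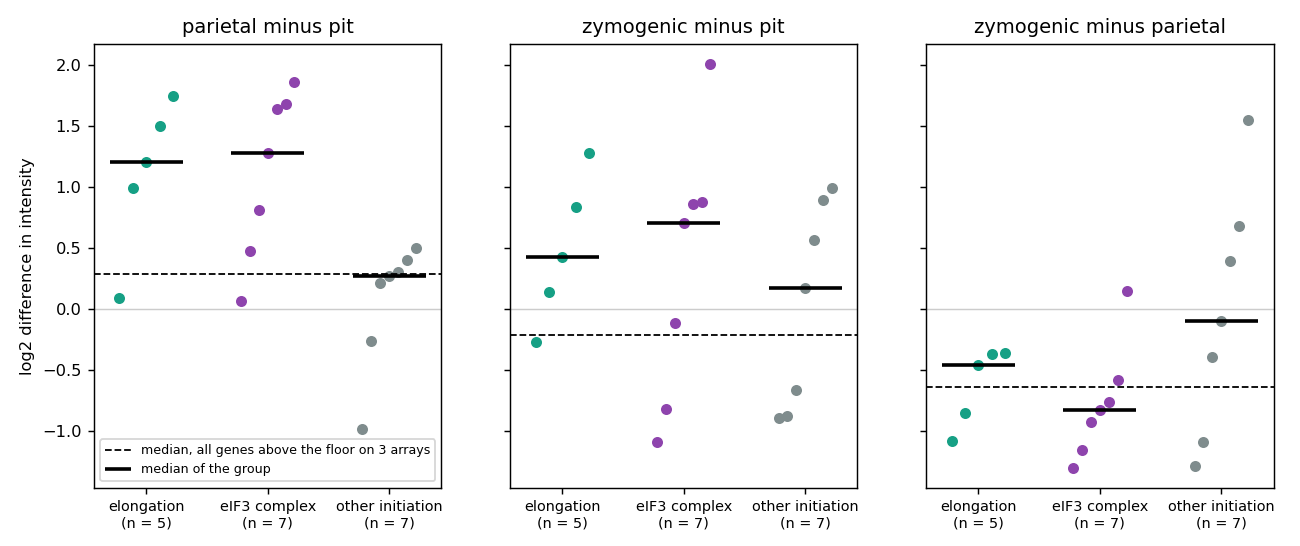
Log2 difference in intensity for each pair of arrays, with 1 point per member above the floor on all 3 arrays (5 elongation factors, 7 eIF3 subunits, 7 other initiation factors), black bars at group medians and a dashed line at the median of the 1186 genes so detected. In parietal minus pit the medians of the elongation factors (1.20) and of eIF3 (1.28) lie above that of the other initiation factors (0.27).

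In parietal minus pit, initiation factors as a class lay closer to the rest of the genes than elongation factors did. In zymogenic minus pit their excess over all genes was 0.58, near the 0.63 of elongation factors under these class limits. Over the 14 detected on every array the median on the log2 scale came to 0.44 for parietal minus pit (0.29 over all genes), 0.37 in zymogenic minus pit (-0.21) and -0.67 in zymogenic minus parietal (-0.64). The last turned to 0.064 after quantile normalization. The value for zymogenic minus pit depended on the class limits. It fell to 0.17 over 13 initiation factors once eIF4E repressors, Eif4a3 and the methyltransferases were left out, against 0.42 for elongation factors. With classes by symbol alone it was 0.17 against 0.63. Initiation factors were not uniform, and division into eIF3 and the remaining factors, made after the values were seen, separated them in parietal minus pit. The 7 eIF3 subunits had a median of 1.28 and the 7 others of 0.27. In zymogenic minus parietal the order was the opposite, with -0.82 for eIF3 and -0.09 for the others. Cytosolic ribosomal proteins, the other large part of the translation apparatus, had a median of 1.42 in parietal minus pit, 0.22 in zymogenic minus pit and -1.03 in zymogenic minus parietal over 33 genes. None of these differences between groups could be tested.

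Of pairs of arrays, 7 of the 19 members detected everywhere were at least 2-fold higher in parietal than in pit cells, where 21.8% of all genes so detected were, and 0 were 2-fold lower (4.89%). Zymogenic against pit, 2 members were 2-fold higher (11.3%) and 1 was lower (23.8%). Zymogenic against parietal, 1 was higher (6.16%) and 5 were lower (32.8%). Against both other lineages at once, 1 of the 19 was higher (11.3%) and 0 lower (1.01%) in parietal cells, 0 higher (4.22%) and 1 lower (16.9%) in zymogenic cells, and 0 higher (3.2%) and 2 lower (5.65%) in pit cells. These comparisons share arrays and are not independent of each other.

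**Figure D3:**
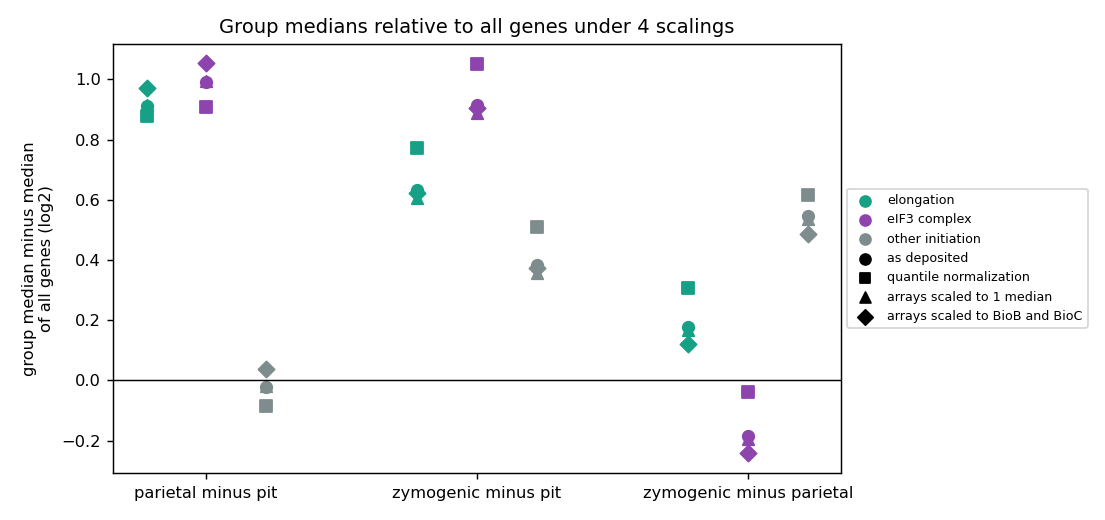
Median log2 difference of each group minus that of the 1186 genes detected everywhere, in each comparison of lineages, with colour for the group and symbol for the scaling between arrays. In the parietal and pit comparison the elongation factors stay between 0.88 and 0.97 above all genes under the 4 scalings and eIF3 between 0.91 and 1.05, while the other initiation factors stay between -0.086 and 0.038. Scaling to 1 median or to BioB and BioC multiplies each array by a constant. It can move these values only through which genes pass the floor and which probe set represents a gene.

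The eIF3 complex, the scaffold that holds the small subunit, the mRNA and the other factors together, did not vary as a block. Of 11 subunits measured, 10 were detected on at least 1 array. Eif3c, a core subunit, was at 149, 165 and 40.9 in parietal, zymogenic and pit cells, and so at least 3.63-fold lower in pit cells than in either other lineage. Its further probe sets, at 121, 91.2 and 21.6 and at 49.6, 39.6 and 4.48, were also lowest in pit cells. With Eef1a1 it made up the 2 of 53 members at least 2-fold lower there than in both other lineages, where 0.594% of all genes were. With probe sets specific to 1 transcript the log2 difference of Eif3c from the nearer array was -0.77. The pit value there, 4.48, was raised to the floor, so that the fold is a lower bound and may exceed 2-fold.

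Eif3i, Eif3k and Eif3l shared the order parietal, zymogenic, pit. Eif3i was at 246, 145 and 79.1, Eif3k at 136, 91.3 and 55.99 and Eif3l at 123, 69.6 and 38.3, with parietal values 3.11-fold, 2.43-fold and 3.22-fold those in pit cells. For Eif3i a further probe set gave a log2 difference of 1.63 for parietal minus pit, next to 1.64. In all, 8 of the 19 members detected everywhere had this order (42.1%), against 22.5% of all genes. Eif3e, at 47.2, 27.4 and 9.16, followed it too, with its pit value under the floor.

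Eif3b and Eif3f, by contrast, were lowest in zymogenic cells. Eif3f stood at 211 in parietal, 94.8 in zymogenic and 202 in pit cells, 2.23-fold and 2.13-fold lower in zymogenic cells. Eif3b stood at 90.1, 36.6 and 64.6, 2.46-fold and 1.76-fold lower there. Eif3h, at 71.7, 37.7 and 40.9, was about as low in pit as in zymogenic cells. After quantile normalization the log2 difference of Eif3f from the nearer array was -0.47, and with the floor as a pseudocount -0.93, both short of 2-fold.

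Eif3d, the subunit that can itself bind the cap of certain mRNAs, was the 1 detected subunit highest in pit cells. It was at 61.8 in pit cells and under the floor in parietal (18.7) and zymogenic (6.86) cells, at least 2.66-fold higher in pit cells than in either. It was the 1 of 53 members higher there by 2-fold, where 1.31% of all genes were. Its further probe set was under the floor on all arrays. The log2 difference was 0.47 when probe sets were averaged, a lower bound because the parietal and zymogenic averages were under the floor. It was 0.49 when the spiked BioB and BioC controls set the scale. Eif3a, the largest subunit, was at 36.03, 22.5 and 15.3, above the floor in parietal cells.

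**Figure D4:**
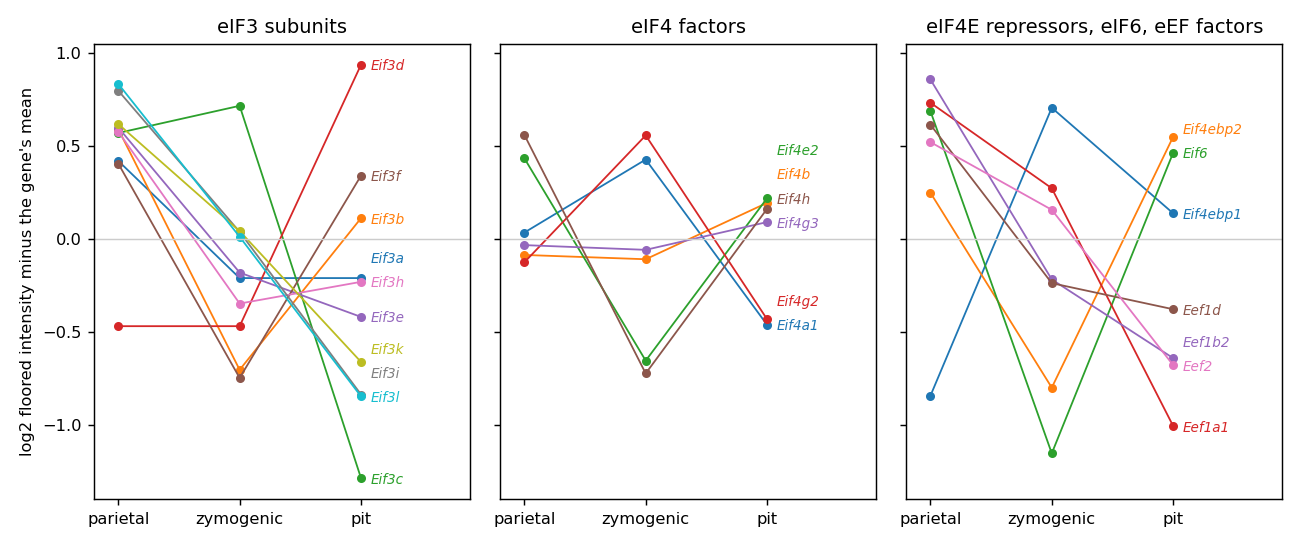
Log2 intensity (values under the floor raised to it) minus each gene's mean over the 3 arrays, for eIF3 subunits, for eIF4 factors and for the eIF4E repressors with Eif6 and the eEF factors; each line is 1 member with n = 1 per array, and gene names stand next to the pit values, shifted where they would overlap. Eif3c, Eif3e, Eif3i, Eif3k and Eif3l are lowest in pit cells whereas Eif3d is highest there, Eif4g2 peaks in zymogenic cells where Eif4h and Eif4e2 are lowest, the peak drawn there for Eif4a1 is not shared by its further probe set, and Eif4ebp1 and Eif4ebp2 run in opposite ways.

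Cap-binding and unwinding factors split by lineage as well. Eif4g2, a scaffold related to eIF4G that lacks the eIF4E-binding site and serves initiation without the cap-binding protein, was highest in zymogenic cells, at 204 against 127 in parietal and 103 in pit cells. It was 1.61-fold and 1.99-fold higher there. Eif4a1, the RNA helicase, was at 80.2, 105 and 56.8 in parietal, zymogenic and pit cells, but a further probe set at 37.5, 24.0 and 26.1 was lowest in zymogenic cells, so that its order is not settled.
Eif4h, which stimulates the helicase, was lowest where Eif4g2 was highest, at 304 in parietal, 125 in zymogenic and 231 in pit cells. It was 2.44-fold lower in zymogenic than in parietal cells and 1.85-fold lower than in pit cells. All of its probe sets above the floor on every array gave nearly the same difference for zymogenic minus parietal, with log2 values of -1.29, -1.30 and -1.28.

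Eif4e2, a cap-binding homologue of eIF4E that can act as a repressor, was at 60.3, 28.3 and 52.0 in parietal, zymogenic and pit cells, 2.13-fold lower in zymogenic than in parietal cells. Of its further probe sets, one passed the floor in zymogenic cells alone (24.8) and another in pit cells alone (23.9). Eif4b, a cofactor of the helicase, and the scaffold Eif4g3 were barely above the floor, at 23.6, 13.7 and 28.7 and at 23.7, 12.3 and 25.8. A further probe set of Eif4b, at 29.9, 9.74 and 18.5, passed the floor in parietal cells alone. The scaffold Eif4g1 was not analysed here.

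The repressors of eIF4E differed from each other. Eif4ebp1 was at 35.3 in parietal, 104 in zymogenic and 69.8 in pit cells, 2.93-fold higher in zymogenic than in parietal cells. It was the 1 member lowest in parietal cells among the 19 detected everywhere. Eif4ebp2 was at 48.2, 10.4 and 59.4, at least 2.07-fold lower in zymogenic cells than in parietal and 2.55-fold lower than in pit cells. For both genes the further probe sets were under the floor on all arrays, and with the mean over probe sets Eif4ebp2 itself came to it, leaving a log2 difference of 0. After quantile normalization its log2 difference from the nearer array was -0.66, short of 2-fold.

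Eif6, which keeps the large ribosomal subunit from joining too early and takes part in its maturation, lay furthest below the nearer of its other values in zymogenic cells among the members. It was at 83.6 in parietal and 71.5 in pit cells against 9.14 in zymogenic cells, at least 3.59-fold and 3.07-fold lower there. Eif6, Eif3f and Eif4ebp2 were the 3 of 53 members at least 2-fold lower in zymogenic cells than in both other lineages, where 2.52% of all genes were. The further probe set of Eif6 was under the floor on every array. Its log2 difference from the nearer array was -0.94 when probe sets were averaged and 0 with transcript-specific ones. Both rest on values raised to the floor, so that neither shows a difference short of 2-fold. No member was 2-fold higher in zymogenic cells (1.57% of all genes) or 2-fold lower in parietal cells (0.0879%) than in both other lineages.

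Among the remaining initiation factors, Eif5, which triggers GTP hydrolysis by eIF2 at the start codon, was nearly level at 70.5, 66.0 and 58.5 in parietal, zymogenic and pit cells. Eif1ax, an isoform of eIF1A encoded on the X chromosome, was at 34.8, 35.8 and 12.2, with the pit value under the floor. Eif2s2, the beta subunit of eIF2, and Eif2d, an alternative carrier of the initiator tRNA, passed the floor in parietal cells alone, at 39.5 and 28.9. Of the eIF2B exchange factor, which recharges eIF2, Eif2b2 was at 89.5, 68.0 and 107, highest in pit cells. Eif2b1 passed the floor in pit cells alone (34.95) and Eif2b5 in zymogenic cells alone (23.7, next to the floor).

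Agreement between probe sets of a gene gives the one measure of error at hand. Such probe sets read the same RNA on the same array, so it does not cover variation between pools, slides or arrays. Over 198 genes with several probe sets above the floor on all arrays, log2 differences between arrays varied with a pooled SD of 0.45 within a gene. Of members, Eif3i, Eif4a1, Eif4h and Eif5a had further probe sets of that kind, and 13 of 15 comparisons had the same sign as the chosen probe set. The 2 exceptions were those of Eif4a1 with the zymogenic array. Pairs of arrays share values, so the 15 comparisons are not independent. Probe sets under the floor on any array were left out, among them that of Eef1d at 118, 0.34 and 216. Of the 19 members detected everywhere, 12 were represented by probe sets whose suffix marks possible matches to several transcripts, and these may also pick up paralogues or processed copies.

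**Figure D5:**
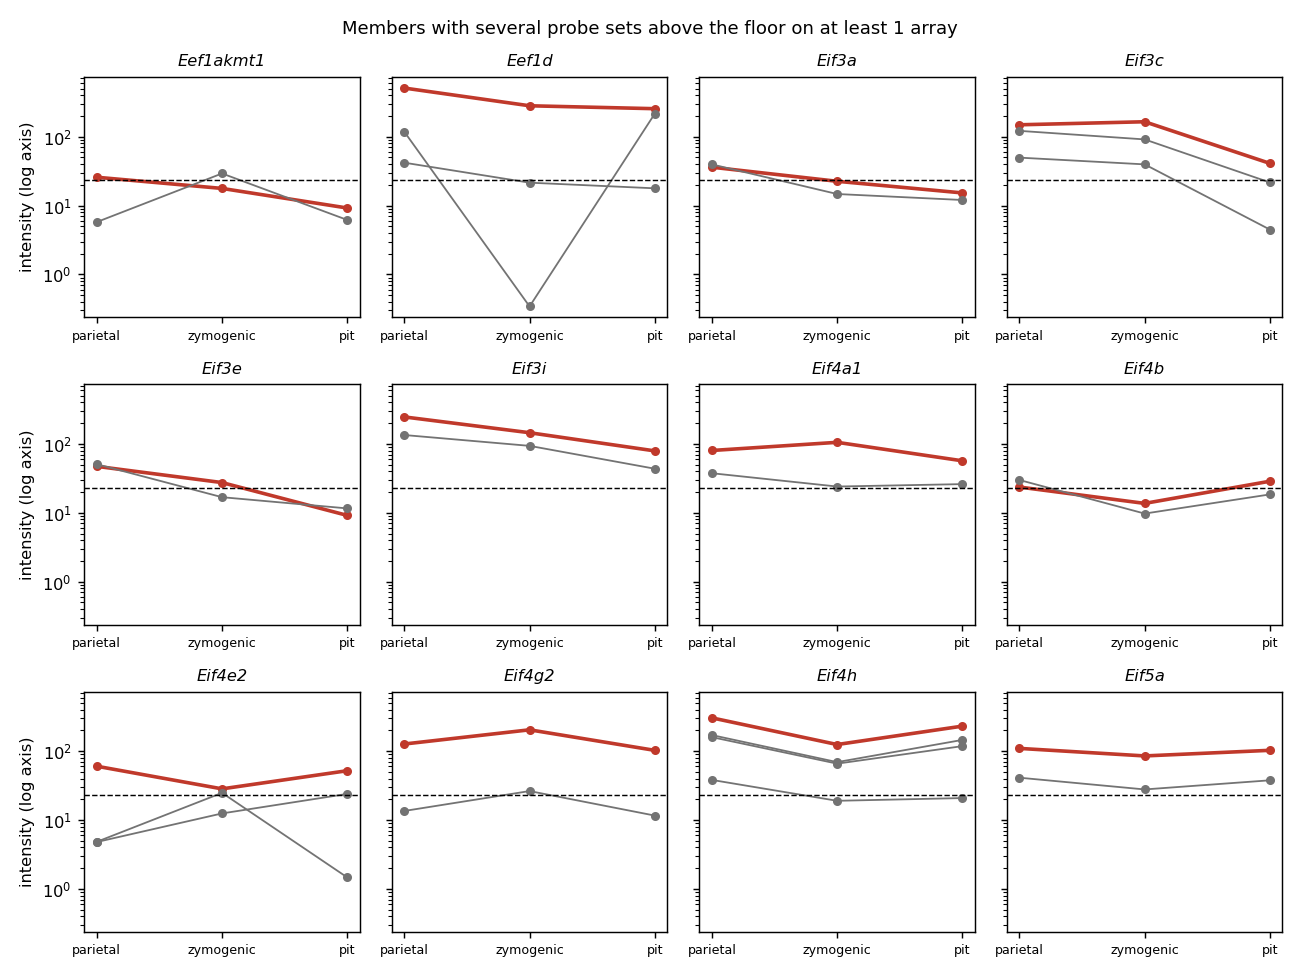
Intensity on the 3 arrays (log axis) of every probe set above the floor (dashed line) on at least 1 array, for the 12 members with several such probe sets; the red line is the probe set that represents the gene and grey lines are the further ones. Probe sets above the floor on every array run nearly parallel for Eif3i, Eif4h and Eif5a. Lines cross for Eef1akmt1, Eef1d, Eif3a, Eif3e, Eif4b and Eif4e2.

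Other genes of the pathway were taken from lists. Aminoacyl-tRNA synthetases and their cofactors, which load tRNAs, made up 21 genes. In parietal cells 12 were detected (57.1%, against 15.4% of all genes), in zymogenic cells 12 (57.1%, against 12.6%) and in pit cells 6 (28.6%, against 14.4%). Eprs was called higher in zymogenic cells (62.9 against 27.5 and 10.9 in parietal and pit cells), where 1.57% of all genes were. Farsb was at 111.4, 46.7 and 15.0 in parietal, zymogenic and pit cells. It was called higher in parietal cells and lower in pit cells, where 1.7% and 0.594% of all genes were. Gars, at 52.9, 62.5 and 24.4, was called lower in pit cells, where 0.594% of all genes were. Over the 5 detected everywhere, parietal minus pit had a median of 0.91 on the log2 scale (0.29 over all genes). It was 1.08 in zymogenic minus pit (-0.21) and 0.24 in zymogenic minus parietal (-0.64).

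All 4 eIF2 kinases (Eif2ak1 to Eif2ak4) were under the floor on every array. Of all genes, 22.7% passed it on at least 1 array. Of 14 genes of mTOR and MNK signalling, Mknk2, a kinase of eIF4E, was at least 2-fold lower in zymogenic cells than in both other lineages, at 31.4 against 197 in parietal and 304 in pit cells, and it was the 1 of the 14 so called, where 2.52% of all genes were. Pdcd4, an inhibitor of the eIF4A helicase, was at 187, 97.5 and 283 in parietal, zymogenic and pit cells. Mtor was at 42.8, 81.4 and 26.1.
Of 5 genes of poly(A) binding, the inhibitor Paip2b was called higher in zymogenic cells (54.5 against 10.5 and 3.10), where 1.57% of all genes were. Dhps, which carries out the first step of hypusine formation on eIF5A, was 1 of 10 genes of factor modification. It was called higher in pit cells (52.7 against 13.8 and 6.57), where 1.31% of all genes were. Of 9 mitochondrial factors, the elongation factor Tufm was called higher in parietal cells (79.6 against 38.2 and 24.96), where 1.7% of all genes were. Of the 7 genes of termination and recycling, 0 were 2-fold apart from both other arrays.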

How the data were processed

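The authors deposited 1 linear intensity for every probe set of each array. How they summarised, background-corrected and scaled it is not given in the sources used here. Per the labels, the molecule is nuclear RNA, whereas the design text gives total RNA. Of 45101 probe sets, 34958 name 1 gene in the platform table and 932 that name several were left out; 34754 were matched by gene identifier to RefSeq symbols, and all 53 members were. Values were used as deposited, floored at 23.3 and compared as log2 differences and folds with pandas 2.3.3 and numpy 2.4.6 under Python 3.11.15 and drawn with matplotlib 3.10.9. Named genes are all members, with values for those above the floor, and pathway genes at least 2-fold from both other arrays; Pdcd4, Mtor and the split at eIF3 were picked after their values were seen. The members and lists were chosen with earlier results of these data known. Of other marker lists, mucous neck genes summed to 415, 32.6 and 131 on the parietal, zymogenic and pit arrays, endocrine genes to 53.3, 973 and 78.1, pancreatic acinar genes to 147, 137 and 231, immune genes to 41.2, 100.1 and 29.96, fibroblast and muscle genes to 414, 332 and 191, and endothelial and red cell genes to 29.6, 28.4 and 24.6. Alternatives were 3 scalings, 2 floors, a pseudocount, other probe set choices, thresholds of 1.5-fold and 4-fold and other class limits; leaving out each array was added after the data were seen.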

Additional observations from a re-analysis of the deposited data

How the results depend on the processing

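No paired analysis was possible because each lineage has 1 array. After quantile normalization the medians for zymogenic minus parietal turned to 0.064 (initiation) and 0.23 (elongation), and that of initiation factors for parietal minus pit was 0.18 in place of 0.44. With the arrays scaled to BioB and BioC the medians of initiation and elongation factors were 1.67 and 2.44 for parietal minus pit and -1.90 and -1.69 for zymogenic minus parietal, as the median of all genes moved to 1.46 and -1.81. For zymogenic minus pit, averaged probe sets gave 0.088 (initiation) and 0.055 (elongation) in place of 0.37 and 0.42, and transcript-specific ones, which leave 2 elongation factors, 0.028 and 1.06. Over all settings with a median, it ranged from 0.18 to 1.67 (initiation) and 0.93 to 2.44 (elongation) for parietal minus pit, and from 0.028 to 0.76 and 0.055 to 1.06 for zymogenic minus pit.

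Counts of members 2-fold apart from both other arrays follow, each with the share of all genes. Higher in parietal cells were 0 after quantile normalization (0.687%), with the floor at the 99th percentile (868, 0.110%), with the pseudocount (1.0003%), with transcript-specific probe sets (1.08%) and at 4-fold (0.264%), 24 with BioB and BioC (10.9%) and 8 at 1.5-fold (3.48%). Lower there were 1 after quantile normalization (0.159%) and 1 at 1.5-fold (0.236%). Higher in zymogenic cells were 2 after quantile normalization (2.28%), 1 with a 90th-percentile floor (3.67%) and 1 at 1.5-fold (2.70%). Lower there were 1 after quantile normalization (1.61%), with averaged (1.60%) and with transcript-specific probe sets (1.65%), 0 with the 99th percentile (0.0769%) and at 4-fold (0.896%), and 6 at 1.5-fold (3.99%). Higher in pit cells were 0 with BioB and BioC (0.275%), the 99th percentile (0.0055%), averaged probe sets (0.863%) and at 4-fold (0.203%), and 2 with the 90th percentile (2.40%) and at 1.5-fold (2.87%). Lower there were 4 after quantile normalization (0.577%) and with the 90th percentile (1.41%), 0 with the 99th percentile (0.0055%) and at 4-fold (0.115%), 1 with transcript-specific probe sets (0.301%) and 6 at 1.5-fold (1.41%).

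Leaving out an array, so that each value had 1 other to exceed, gave 7 to 8 members higher (2.73% to 4.74% of all genes) and 1 lower (1.46% to 1.74%) in parietal cells, 1 to 2 higher (1.74% to 2.35%) and 4 to 7 lower (4.24% to 4.74%) in zymogenic cells, and 1 to 4 higher (1.46% to 4.24%) and 2 to 8 lower (2.35% to 2.73%) in pit cells. At the 99th percentile no member was 2-fold apart and no median could be taken. None of the 7 members called as reported changed sign under a setting that was run, but all came to 0 at the 99th percentile. The number of arrays and the signal near the floor limit precision.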

Other observations

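Of 8 probe sets that name a factor together with another gene, 4 were above the floor of 23.3 on at least 1 array. The probe set shared by Gm29753 with Eef1g, the gamma subunit of the eEF1B complex, was at 190.4, 117 and 48.1 in parietal, zymogenic and pit cells. That shared by Gm5576 with Eif4a3, a helicase of the exon junction complex, was at 129, 63.9 and 68.2, while the probe set naming Eif4a3 alone was under the floor throughout. That of Ankhd1 with Eif4ebp3 was at 46.3, 35.2 and 23.2, and that of Eif3j2 with Eif3j1 at 32.5, 35.9 and 19.5.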
